A study of Mus musculus with 2 samples.

Results

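Folr2-negative C1q macrophages were selected on measured RNA, as the cells of both libraries in which the products of C1qa, C1qb and C1qc made up at least 0.1% of the RNA molecules counted, Csf1r was detected, S100a8 and S100a9 together stayed under 2%, and no molecule of Folr2 was counted. Before this choice, barcodes were kept with at least 500 unique molecular identifiers (UMIs, 1 for each RNA molecule captured), more than 200 and fewer than 6000 genes and under 5% mitochondrial UMIs. Of 19826 kept cells, 2102 met the rule, 235 of 8557 under control IgG and 1867 of 11269 after anti-CD3L1.

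The hosts were nude mice carrying tumors of the human osteosarcoma line 143B. Such mice lack a functional thymus and so most T cells but keep myeloid cells, natural killer (NK) cells and B cells. Tumors were treated with control IgG or with an antibody against CD3L1, a surface protein encoded by the human gene ITPRIPL1, and mouse cells bearing the immune cell protein CD45 were enriched with magnetic beads and sequenced by droplet-based single-cell RNA sequencing. Each group gave 1 library from 3 pooled tumors, with no record of the tumor of a cell, and the labels give neither the age of the mice nor a time of sampling. The comparison of the libraries addresses whether macrophages differ after the antibody in hosts with few T cells. No test across samples was possible, cells of a library are not replicates, and every interval below is a 95% interval of counting error only.

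C1q is the recognition component of the classical complement pathway, and macrophages settled in tissues are a main source of it. In tumors, macrophages with C1q often also express Apoe, which encodes a lipid carrier, and Trem2, a receptor for lipids and cell debris. Folr2 encodes folate receptor beta, which is used to mark a subset with features of tissue-resident macrophages, together with the scavenger and mannose receptor genes Mrc1, Stab1, Lyve1 and Cd163.

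The control IgG library held 74850604 UMIs over 1084690 barcodes and the anti-CD3L1 library 108246719 UMIs over 1548857 barcodes. The Folr2-negative cells accounted for 3297675 and 18793140 of these UMIs. Among them, the median cell held 13820 UMIs and 3346 genes under control IgG and 9594 UMIs and 2879 genes after anti-CD3L1. Between the libraries, 26 barcodes were shared among kept cells, none of them between Folr2-negative cells, and 5 Folr2-negative cells had a barcode that a kept cell of the other library also carried. Depth thus differed between the groups, and a Folr2-negative cell of the control IgG library was on average more deeply sampled.

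The Folr2-negative cells were 2.75% (exact binomial interval 2.41 to 3.11%) of kept cells under control IgG and 16.6% (15.9 to 17.3%) after anti-CD3L1. Since the kept cells include all other immune cells, this share also moves with the number of neutrophils. The gate of cells with S100a8 and S100a9 at 2% or more and no Csf1r held 3785 cells under control IgG and 389 after anti-CD3L1. Among Csf1r-positive cells under the S100a8 and S100a9 limit, a denominator without that gate, the Folr2-negative cells were 11.1% (9.80 to 12.5%) of 2116 under control IgG and 25.7% (24.7 to 26.7%) of 7275 after anti-CD3L1. Within C1q macrophages, 235 of 357 lacked a Folr2 UMI under control IgG, or 65.8% (60.7 to 70.7%), and 1867 of 3179 after anti-CD3L1, or 58.7% (57.0 to 60.4%). The intervals came within 1 percentage point of each other without overlapping, with the lower share after anti-CD3L1.

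A count of 0 is not the absence of Folr2 RNA, and the split moved with depth. In the anti-CD3L1 library, 78.4% of C1q macrophages under 5000 UMIs lacked Folr2, 66.5% between 5000 and 10000 UMIs, 53.0% between 10000 and 15000 UMIs, 43.0% between 15000 and 20000 UMIs and 46.0% from 20000 UMIs. In the control IgG library the share was 71.2% between 5000 and 10000 UMIs, 71.9% between 10000 and 15000 UMIs, 56.7% between 15000 and 20000 UMIs and 59.2% from 20000 UMIs, with 10 cells under 5000 UMIs. Cells were also thinned at random to 3000 UMIs, which left out 3 and 102 shallower C1q macrophages. Of the rest, 83.6% (79.3 to 87.3%) and 76.6% (75.1 to 78.1%) lacked Folr2. The lower share after anti-CD3L1 was thus also seen in cells thinned to 3000 UMIs, while the level of both shares followed the number of UMIs sampled. No background share of Folr2 is given here, so the part of RNA from outside the cells in this difference was not tested. Among the Folr2-positive cells, 60 of 122 and 458 of 1312 rested on 1 UMI.

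**Figure D1:**
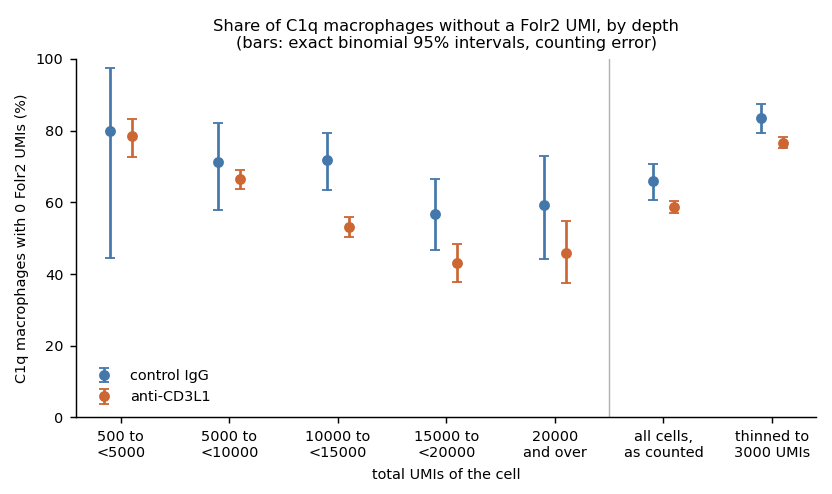
Percent of C1q macrophages with 0 Folr2 UMIs, by total UMIs of the cell, with the value over all cells as counted and after thinning to 3000 UMIs at the right; points are the control IgG and anti-CD3L1 libraries and bars exact binomial 95% intervals. The share falls from 78.4% in the shallowest cells of the anti-CD3L1 library to 43.0% between 15000 and 20000 UMIs.

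The cells carried the markers of the name. C1qa, C1qb and C1qc were used by the rule and reached 3178, 2201 and 1602 CPM (counts of a gene per 1000000 UMIs of the gate) under control IgG and 3180, 2425 and 1396 CPM after anti-CD3L1. Of the markers that the rule did not use, Apoe stood at 12216 CPM under control IgG and 13002 CPM after anti-CD3L1. Ms4a7, a membrane gene of resident-type macrophages, stood at 1432 and 1102 CPM. Trem2 stood at 158 and 295 CPM. With C1qa, C1qb and C1qc these make 6 markers, and all 6 were lower than in the Folr2-positive C1q macrophages of both libraries. Their median log2 ratios against those cells were -0.31 under control IgG and -0.46 after anti-CD3L1. In Csf1r-positive cells below the C1q threshold, called C1q-low cells here (1759 and 4096 cells), Apoe was at 1545 and 3357 CPM, Ms4a7 at 318 and 303 CPM and Trem2 at 64.7 and 99.3 CPM, so all 3 were higher in the Folr2-negative C1q macrophages of both libraries. In cells thinned to 3000 UMIs, Ms4a7 was detected in 87.1% (82.1 to 91.1%) and 73.2% (71.1 to 75.2%) of them, against 1.35% and 3.53% of cells in an NK gate (Csf1r at 0 with at least 2 UMIs of the NK receptor genes Ncr1, Klre1 and Klrb1c), which should lack the gene. Without thinning the shares were 93.6% and 84.8%, and the NK-gate cells had medians of 11497 and 9387 UMIs. For Apoe the shares were 97.0% and 97.3%, against 5.41% and 31.8% in the NK gate.

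Markers of other cell types were low, with exceptions. T cell markers summed to 1.82 CPM under control IgG, with Cd3e, Cd3g, Trac and Cd8a at 0 UMIs, and to 3.25 CPM after anti-CD3L1, where all 6 had a UMI and Trbc2 led at 1.22 CPM. Red blood cell markers had no UMI in the control IgG cells, where 3 counts would be 0.910 CPM, and summed to 0.426 CPM after anti-CD3L1, with Hbb-bs at 0.266 CPM. B cell markers summed to 20.01 and 15.6 CPM, led by Cd79b at 19.1 and 12.0 CPM. Fibroblast markers summed to 14.9 and 29.9 CPM, but 1 cell gave 81.1% of their UMIs after anti-CD3L1. Without the cell with the most such UMIs in each library, a step added after seeing the data, they summed to 12.5 and 5.64 CPM. NK markers summed to 267 CPM under control IgG, of which Ccl5, also made by macrophages, gave 256 CPM, while Ncr1, Klrb1c, Gzmb, Prf1 and Eomes were at 0. After anti-CD3L1 they summed to 591 CPM, with Ccl5 at 531 CPM and all 10 genes with a UMI. Of the dendritic cell lists, Clec9a was at 0 under control IgG and 1.81 CPM after anti-CD3L1, and Xcr1 at 1.21 and 1.49 CPM. The summed type 1 list was 273 and 357 CPM because Cadm1, an adhesion gene, stood at 210 and 296 CPM. Type 2 dendritic cell markers summed to 49.1 and 97.2 CPM, mature dendritic cell markers to 185 and 181 CPM, led by Relb, and plasmacytoid markers to 691 and 700 CPM, led by Bst2, with Siglech at 0 and 4.26 CPM.

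Neutrophil markers summed to 1335 CPM under control IgG, with S100a9 the most abundant at 462 CPM, and to 507 CPM after anti-CD3L1, with Acod1 the most abundant at 243 CPM. All 12 had a UMI in both libraries. Barcodes under 100 UMIs, which hold mostly free RNA, carried 82995 CPM of these genes under control IgG and 2111 CPM after anti-CD3L1. The lower neutrophil genes in the Folr2-negative cells after anti-CD3L1 thus moved with the free RNA, and its part in them was not tested. With free RNA taken to have the profile of those barcodes, the gene that limits it most gave a largest share of 0.295% of UMIs under control IgG (Igkc) and 1.18% after anti-CD3L1 (Lrp1b). Each limit rests on a single gene and that assumed profile. S100a8 and S100a9 had a UMI in 229 and 231 of 235 cells under control IgG, and in 271 and 223 of 1867 after anti-CD3L1.

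**Figure D2:**
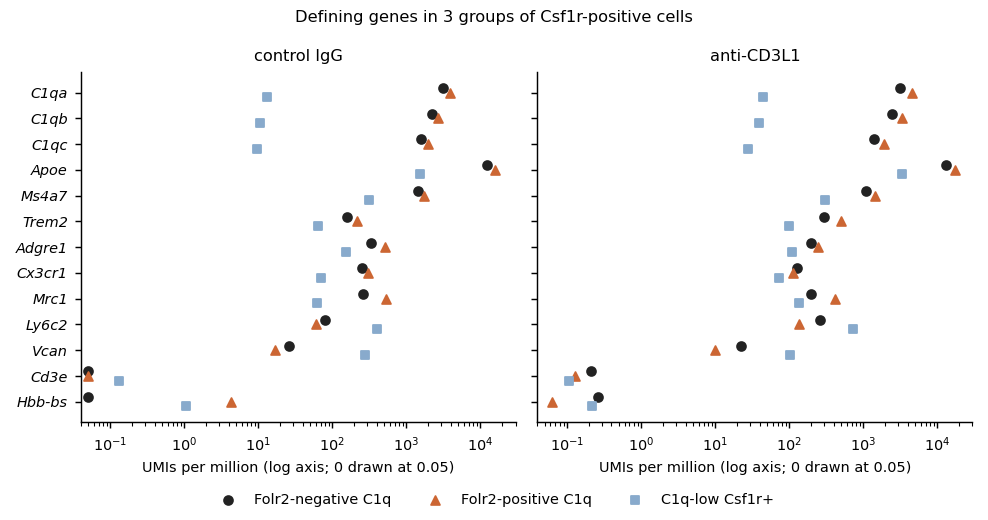
CPM on a log axis (a value of 0 is drawn at 0.05) of defining genes, in the control IgG library (left) and the anti-CD3L1 library (right); circles are Folr2-negative C1q macrophages, triangles Folr2-positive C1q macrophages and squares C1q-low Csf1r-positive cells. Apoe, Ms4a7 and Trem2 lie above the C1q-low cells in both libraries, and Cd3e and Hbb-bs lie near or at 0.

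Values beside the C1q threshold are a description of the gate. Folr2-negative cells with 0.1 to 0.15% C1q, 16 and 141 cells, held 5008 and 4818 CPM of Apoe, 1229 and 416 CPM of Ms4a7 and 151 and 432 CPM of Ly6c2, a gene of classical monocytes. Cells just outside, with 0.05 to 0.1% C1q, numbered 34 and 181 and held 4929 and 5087 CPM of Apoe, 653 and 473 CPM of Ms4a7 and 377 and 493 CPM of Ly6c2. In the anti-CD3L1 library the values on both sides were close, with Cd74 at 6426 inside and 6442 CPM outside. In the control IgG library Ms4a7 was higher inside and Ly6c2, Ccr2 (108 and 240 CPM) and Cd74 (2717 and 4558 CPM) were higher outside.

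The cells differed among themselves along their C1q level, in nearly the same proportions in both libraries. Under control IgG, 46.0% held 0.1 to 0.5% C1q, 31.5% held 0.5 to 1%, 20.9% held 1 to 2% and 1.70%, or 4 cells, held more. After anti-CD3L1 the shares were 44.5%, 32.0%, 21.96% and 1.55%, or 29 cells. From the lowest band to the band of 1 to 2%, Apoe went from 6824 to 24247 CPM under control IgG and from 6945 to 22786 CPM after anti-CD3L1. Trem2 went from 122 to 252 CPM and from 183 to 454 CPM. The monocyte gene Ly6c2 went the other way, from 121 to 33.2 CPM and from 366 to 82.0 CPM, and the summed classical monocyte markers from 1161 to 279 CPM and from 1806 to 554 CPM. Summed lysosome genes went from 12869 to 17539 CPM and from 14097 to 19971 CPM. Ccl8, a monocyte-attracting chemokine, was at 72.6 and 81.5 CPM in the lowest band and at 1003 and 1008 CPM in the band of 1 to 2%. Il1b, the precursor gene of interleukin-1 beta, was at 3018 and 2136 CPM in the lowest band and at 1733 and 1023 CPM in that of 1 to 2%. Not every lipid gene went with Apoe and Trem2. After anti-CD3L1, Cd36 went from 105 to 75.1 CPM, Lpl from 255 to 178 CPM and Spp1 from 1073 to 674 CPM between the same bands. Along the axis, the cells low in C1q thus held more monocyte and interleukin-1 RNA and the cells high in C1q more Apoe, Trem2 and lysosome RNA. The bands were made from genes of the rule, so this order is a description.

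**Figure D3:**
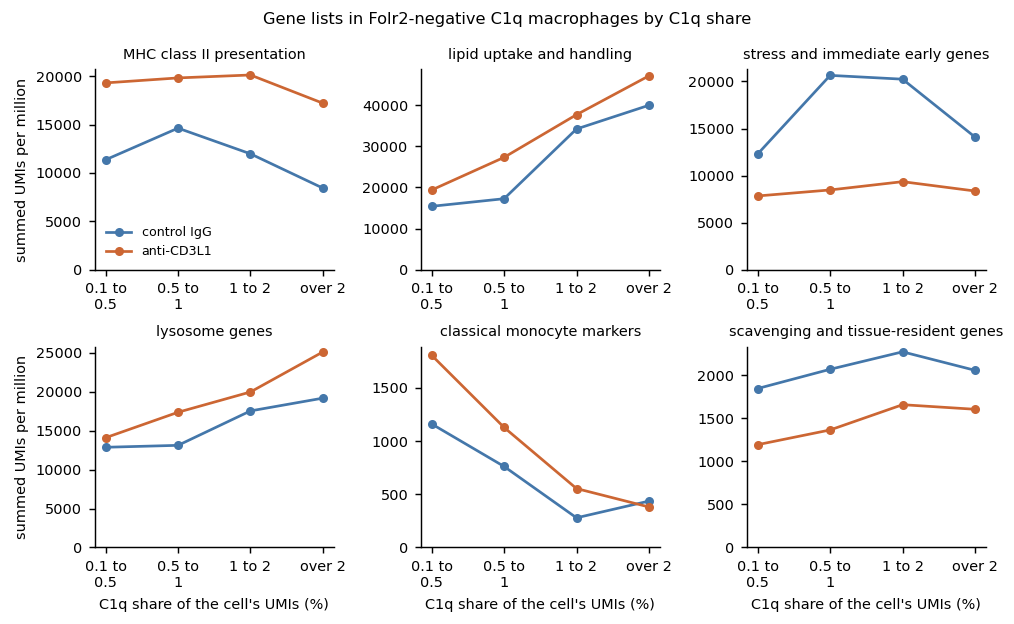
Summed CPM of 6 gene lists in Folr2-negative C1q macrophages, by the percent of the cell's UMIs that came from C1qa, C1qb and C1qc, in the control IgG and anti-CD3L1 libraries; the band over 2% holds 4 and 29 cells. MHC class II genes are higher and stress genes lower in the anti-CD3L1 library in every band, while up to 2% C1q the summed lipid genes, of which Apoe is the most abundant, go up and the monocyte markers down with the C1q share in both libraries.

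Among the 15 highest and 15 lowest ranked genes between the libraries were genes of lipid handling, chemokines, arginine transport and the heat shock response. A gene was called different at a ratio of 2 or more, among genes with at least 20 UMIs over both libraries and at least 10 CPM in one. Of 7868 such genes, 210 (2.67%) were called higher and 195 (2.48%) called lower after anti-CD3L1 in Folr2-negative C1q macrophages, and the median log2 ratio of all was 0.04. The counts moved with the cells and UMIs used. In cells thinned to 3000 UMIs, 424 genes were called higher and 353 lower, of which 165 and 150 were among the genes above. In cells with over 1% C1q, 488 and 436 were called, of which 130 and 135 were. Of the ratios of 79 listed or ranked genes that were called, 47 left their counting interval with C1q of at least 0.5%, and only 19 stayed within it in cells with over 1% C1q, so the sizes below hold for the mix of C1q levels in these cells. Ratios below are log2 ratios of CPM, anti-CD3L1 over control IgG, with exact binomial intervals.

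Of 21 lipid genes, 8 were called higher and none lower, and their median was 0.69. Cd36, a fatty acid and lipoprotein receptor, stood at 10.0 CPM (exact Poisson interval 6.89 to 14.1) under control IgG and 96.4 CPM (92.0 to 101.0) after anti-CD3L1, a log2 ratio of 3.27 (2.77 to 3.81) that was the highest of the genes ranked. Lpl, a lipase that frees fatty acids, stood at 27.3 and 230.9 CPM (3.08, 2.78 to 3.40). In cells thinned to 3000 UMIs, Lpl was detected in 3.88% (1.79 to 7.24%) and 28.9% (26.8 to 31.1%), against 0% and 1.62% in the NK gate. Without thinning the shares were 9.36% and 43.2%. The fatty acid carriers Fabp4 and Fabp5 stood at 6.37 and 47.7 CPM and at 638 and 1810 CPM. Gpnmb, a membrane glycoprotein of lipid-laden macrophages, stood at 66.7 and 205 CPM, Spp1, or osteopontin, at 218 and 958 CPM, and Lgals3, or galectin-3, at 1112 and 2690 CPM. Spp1 was also detected in 24.3% and 45.7% of thinned NK-gate cells, against 15.1% and 50.8% of Folr2-negative cells, and in barcodes under 100 UMIs it stood at 273 and 1026 CPM, above the cells. Fabp4 stood at 5.90 and 56.0 CPM in those barcodes. The cholesterol exporter Abca1 at 624 and 483 CPM and the phospholipid transfer gene Pltp at 796 and 470 CPM were the 2 of the list with a lower value after anti-CD3L1. The Gpnmb difference varied with C1q, with 132 and 171 CPM in the band of 0.1 to 0.5% and 18.6 and 222 CPM in that of 0.5 to 1%, and 1 cell gave 26.8% of the control UMIs. Of the same genes in Folr2-positive C1q macrophages and C1q-low cells, Lpl had log2 ratios of 3.63 and 1.99, Cd36 of 1.65 and 2.48 and Gpnmb of 2.46 and 1.94, so the difference was not particular to the Folr2-negative cells.

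MHC class II molecules present peptides from engulfed proteins to T helper cells, and their genes share a promoter arrangement of X and Y boxes that is switched on through the coactivator encoded by Ciita. Cd74, the invariant chain, stood at 4752 and 7412 CPM, H2-Aa at 1992 and 3349 CPM, H2-Ab1 at 1769 and 2986 CPM and H2-Eb1 at 1541 and 2587 CPM. The log2 ratios of these 4 lay between 0.64 and 0.76. All 9 genes of the list were higher after anti-CD3L1, 3 of them called, with a median of 0.76, and their sum went from 12522 to 19629 CPM. The called genes were H2-DMb1 (85.2 and 222 CPM) and H2-DMb2 (36.1 and 79.0 CPM), which load peptides, and Ciita (19.4 and 46.8 CPM). H2-Aa was detected in 63.4% (56.8 to 69.6%) of thinned cells under control IgG and in 88.9% (87.3 to 90.3%) after anti-CD3L1, with 12.2% and 18.8% in the NK gate. Without thinning the shares were 75.3% and 93.8%. Single cells varied widely. The list took a median of 0.795% of the UMIs of a cell under control IgG, with quartiles of 0.305 and 2.03%, and a median of 1.79% after anti-CD3L1, with quartiles of 0.862 and 2.80%. In C1q-low cells the log2 ratios of H2-Aa and Cd74 were larger, 1.73 and 1.48, and in Folr2-positive cells smaller, 0.40 and 0.42.

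The promoters of 2 of these genes show the Y box, ATTGG on either strand, in capitals. Each sequence is the 250 bases before the start site in RefSeq (GRCm38.p6), read along the gene. H2-Aa lies on the minus strand at chr17:34287824-34288073 and H2-Eb1 on the plus strand at chr17:34305617-34305866.
H2-Aa: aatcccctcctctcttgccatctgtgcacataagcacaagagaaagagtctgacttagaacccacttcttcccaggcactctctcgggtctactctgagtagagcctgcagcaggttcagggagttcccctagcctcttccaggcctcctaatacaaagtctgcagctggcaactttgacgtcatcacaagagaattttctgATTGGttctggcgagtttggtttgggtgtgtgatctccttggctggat
H2-Eb1: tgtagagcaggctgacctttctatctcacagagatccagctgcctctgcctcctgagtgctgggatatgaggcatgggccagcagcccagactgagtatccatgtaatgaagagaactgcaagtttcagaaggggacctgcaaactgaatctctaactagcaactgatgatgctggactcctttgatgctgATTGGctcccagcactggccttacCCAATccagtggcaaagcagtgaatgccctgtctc

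The first match begins 48 bases before the start of H2-Aa and 59 bases before that of H2-Eb1, whose window holds 2 matches. Of the 9 genes of the list, 8 were looked up, without Ctss, and H2-Ab1, Cd74 and Ciita had no promoter available. The letters were found in all 5 others. They were found in 37.5% of all 27025 genes and in 33.8% of all 32851 windows of this length, so they are frequent. A match describes the sequence and is no evidence of binding.

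Of 10 tested genes of alternative activation and arginine metabolism, 6 were called higher and none lower, with a median of 2.05. Among them, Mgl2 is also on the list of type 2 dendritic cell markers. Of 3 tested genes of that list, Mgl2 and Clec10a were called higher, with a median of 1.63 and 12 control UMIs for Clec10a. Slc7a2, a transporter of arginine and other cationic amino acids, stood at 9.70 and 84.3 CPM (3.12, 2.62 to 3.67), and at 0.44 on the log2 scale in C1q-low cells, where it was already at 51.8 CPM under control IgG. Irf4, a transcription factor of alternative activation, stood at 4.25 and 27.8 CPM and Pdcd1lg2, a PD-1 ligand gene, at 7.88 and 20.8 CPM. All 6 called genes of the alternative activation and arginine list rested on few control UMIs, with 32 for Slc7a2, 26 for Pdcd1lg2 and 14 for Irf4. The other 3 had fewer still. Ear2 had 0 UMIs under control IgG and 14.7 CPM after anti-CD3L1, a log2 ratio of 4.01 with the control set to 3 counts and a lower exact limit of 3.705, Mgl2 had 4 UMIs and 16.1 CPM, and Retnla had 1 UMI and 25.7 CPM, a log2 ratio of 6.41 (3.92 to 11.71). In cells with over 1% C1q alone, Mgl2 and Retnla had 0 control UMIs in 53 cells and 13 and 4 UMIs after anti-CD3L1 in 439 cells, too few to give a direction. A single cell gave 49.6% of the Retnla UMIs of the anti-CD3L1 library, and without the top cell of each library, which leaves 0 control UMIs, its log2 ratio was 3.83 with the control set to 3 counts. Ear2 and Mgl2 were higher in barcodes under 100 UMIs of the anti-CD3L1 library, at 19.3 and 23.9 CPM, than in the cells.

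The chemokine genes went both ways. Ccl6 stood at 61.0 and 481 CPM (2.98, 2.78 to 3.19), Ccl9 at 71.9 and 507 CPM (2.82, 2.63 to 3.01) and Ccl24, which draws eosinophils, at 5.16 and 71.5 CPM, all 3 called higher. Ccl2, Ccl7 and Ccl12, which draw monocytes, stood at 427 and 165 CPM, 418 and 202 CPM and 317 and 118 CPM, and Cxcl3, which draws neutrophils, at 43.4 and 14.0 CPM, all 4 called lower, although in cells with over 1% C1q Cxcl3 had 1 control UMI and 23 UMIs after anti-CD3L1. Without the cell with the most Ccl7 UMIs in each library, the log2 ratio of Ccl7 was -0.96 and short of a call. The differences in these 3 genes lay mostly in cells with more C1q. In the band of 0.1 to 0.5%, Ccl2 stood at 278 and 181 CPM, Ccl7 at 201 and 191 CPM and Ccl12 at 76.8 and 75.04 CPM, and in that of 0.5 to 1% at 632 and 164 CPM, 610 and 213 CPM and 511 and 130 CPM. In C1q-low cells, Ccl2, Ccl7 and Ccl12 had log2 ratios of 0.36, 0.96 and 0.22. The most abundant chemokine, Cxcl2, was at 5692 and 6468 CPM, within a ratio of 2. Thinned cells with a UMI of Ccl9 made up 12.5% (8.53 to 17.5%) under control IgG and 58.6% (56.3 to 60.9%) after anti-CD3L1, against 2.03% and 6.18% in the NK gate, and without thinning in 38.3% and 79.4%. In barcodes under 100 UMIs of the anti-CD3L1 library, Ccl9 stood at 601 CPM and Ccl24 at 88.7 CPM, above their levels in the cells.

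Stress and immediate early genes were lower after anti-CD3L1 in Folr2-negative cells, all 10 of 10 with a negative log2 ratio and 4 called, with a median of -0.82, and their sum was 16868 and 8400 CPM. Hspa1a and Hspa1b, near-identical genes of the inducible heat shock protein 70 between which reads may be split uncertainly, stood at 2917 and 935 CPM and at 2494 and 750 CPM (-1.64 and -1.73). The called immediate early genes were Jun at 1402 and 584 CPM and Ier2 at 333 and 159 CPM. Of the genes ranked lowest, Hspb1, a small heat shock protein, stood at 369 and 27.9 CPM (-3.73, -3.88 to -3.58), and Hsph1, Bag3 and Dnajb1, partners of heat shock protein 70, stood at 630 and 211 CPM, 296 and 101 CPM and 442 and 153 CPM. In the band of 0.1 to 0.5% C1q, Ier2 and Bag3 differed less, at 219 and 155 CPM and at 161 and 92.1 CPM. Hmox1, or heme oxygenase 1, stood at 641 and 213 CPM. Hspb1 was detected in 17.7% and 3.04% of thinned cells and in 13.5% and 8.53% of NK-gate cells. In C1q-low cells Hspa1a, Hspa1b, Hsph1, Bag3 and Dnajb1 had log2 ratios between -0.04 and 0.46, and in Folr2-positive cells between -1.98 and -1.49. Within the control IgG library, Hspa1a was at 2917 CPM in Folr2-negative cells and at 744 CPM in C1q-low cells, and after anti-CD3L1 at 935 and 823 CPM. The summed list stood at 6103 and 8600 CPM in C1q-low cells and at 7643 and 6624 CPM in the NK gate. With 1 library per group, the preparation of a library and its treatment cannot be told apart.

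The promoter of Hspa1b, read from RefSeq in the same way (minus strand, chr17:34959239-34959488), is shown because it holds the heat shock element letters GAANNTTC, in capitals, which read the same on both strands.
Hspa1b: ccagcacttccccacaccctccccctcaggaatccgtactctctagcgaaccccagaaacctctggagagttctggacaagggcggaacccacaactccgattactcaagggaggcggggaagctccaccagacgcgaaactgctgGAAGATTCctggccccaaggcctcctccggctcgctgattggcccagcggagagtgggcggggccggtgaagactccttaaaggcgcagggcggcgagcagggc

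These letters were found in the windows of 3 of the 6 heat shock genes named above (Hspa1a, Hspa1b and Hspb1). Over all genes they were found in 7.73%, and over all windows in 6.69%. The Hspa1a and Hspa1b windows shared 247 of 250 bases, so their matches are not independent.

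**Figure D4:**
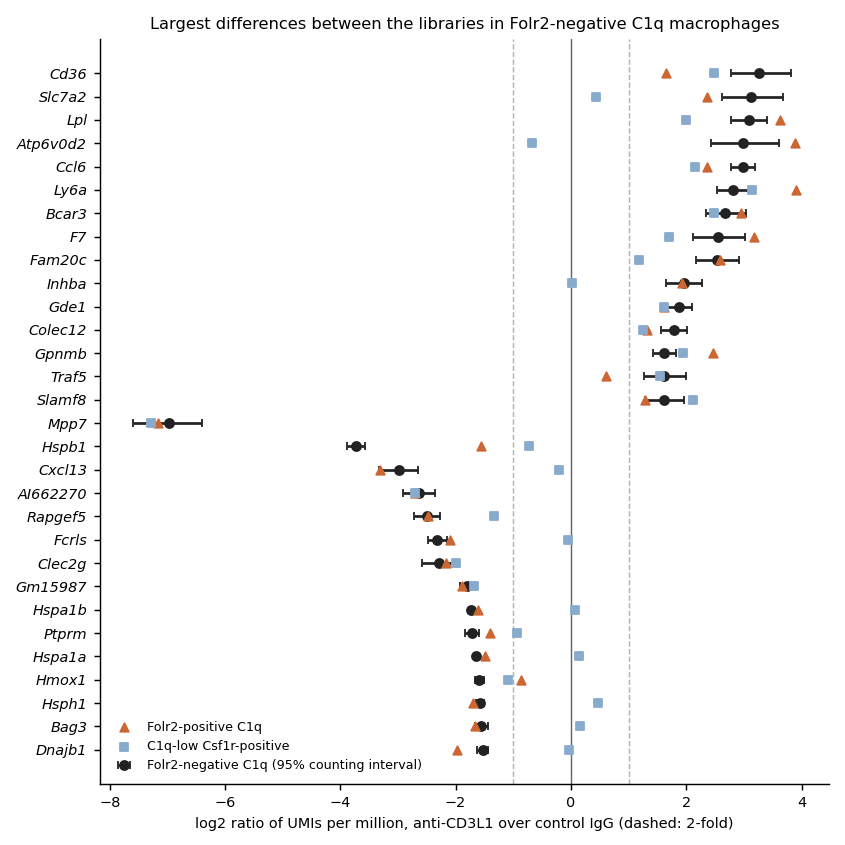
Log2 ratio of CPM, anti-CD3L1 over control IgG, for the 15 highest and 15 lowest genes in Folr2-negative C1q macrophages; circles with bars are these cells with 95% counting intervals, triangles Folr2-positive C1q macrophages, squares C1q-low Csf1r-positive cells, and dashed lines mark a ratio of 2. The heat shock genes near the bottom lie below -1 in both C1q groups and between -0.72 and 0.46 in C1q-low cells, and Mpp7 lies near -7 in all 3 groups.

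The remaining genes of the 15 highest were Atp6v0d2, a subunit of the lysosomal proton pump of osteoclasts and macrophages (7.88 and 62.3 CPM), Ly6a, a surface antigen gene induced by interferon (31.8 and 223 CPM), Bcar3, an adaptor of integrin signaling (22.4 and 144 CPM), F7, coagulation factor VII (13.3 and 78.1 CPM), Fam20c, a kinase of secreted proteins (19.4 and 112 CPM), Inhba, a subunit of activin A (27.6 and 107 CPM), Gde1 (51.2 and 187 CPM), the scavenger receptor Colec12 (53.4 and 184 CPM), Traf5 (20.9 and 64.3 CPM) and Slamf8 (23.3 and 71.3 CPM). Their log2 ratios lay between 1.61 and 2.98. Inhba had a log2 ratio of 1.95 in Folr2-negative and 1.93 in Folr2-positive cells and of 0.01 in C1q-low cells, where it stood at 156 and 158 CPM. The control UMIs of Atp6v0d2, F7 and Ly6a came from 9, 20 and 24 cells, and those of the other genes from 33 cells for Inhba to 98 for Gde1.

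The remaining genes of the 15 lowest were Mpp7, Cxcl13, AI662270, Rapgef5, Fcrls, Clec2g, Gm15987 and Ptprm, with log2 ratios between -6.97 and -1.72. Mpp7, a scaffold gene of cell junctions, stood at 173 and 1.38 CPM, and its log2 ratio was -7.17 in Folr2-positive cells, -7.28 in C1q-low cells and -5.52 in the NK gate, so all gates of the libraries differed in it. Cxcl13, a B cell attractant, stood at 52.5 and 6.60 CPM, but 57.2% of its control UMIs came from 1 cell, and without the top cell of each library its log2 ratio was -2.22. Rapgef5, Fcrls, a gene of resident macrophages and microglia, and Ptprm, an adhesion phosphatase, stood at 103 and 18.1 CPM, 174 and 34.8 CPM and 244 and 74.4 CPM. Saa3, an acute-phase gene, stood at 1602 and 17.2 CPM, a log2 ratio of -6.54. Under control IgG the median cell held 1 UMI of Saa3 against a mean of 22.5, and 1 cell gave 17.2% of its UMIs. Saa3 was not ranked because its level in barcodes under 100 UMIs, 6094 CPM, was above that in the cells.

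Among scavenging and tissue-resident genes, 2 of 9 tested were called lower and none higher, with a median of -0.58. Pf4, a platelet-type chemokine of resident macrophages, stood at 414 and 145 CPM, Gas6, a bridge to dying cells, at 22.7 and 8.99 CPM, Stab1 at 81.9 and 45.6 CPM and Mrc1 at 264 and 197 CPM. Of the lineage transcription factors, Maf, a factor of resident macrophages, was called lower (279 and 99.8 CPM). Irf4 was called higher, on 14 control UMIs, while Spi1 stood at 591 and 643 CPM. Glycolysis and hypoxia genes had a median of -0.54 with 3 of 11 called lower, among them Bnip3 at 67.6 and 19.8 CPM. In the complement list, properdin (Cfp) was called lower at 345 and 124 CPM and the receptors C3ar1 and C5ar1 were within a ratio of 2. Of the osteoclast genes, Ctsk, Dcstamp and Atp6v0d2 were called higher and Mmp9 lower, at 20.01 and 2.02 CPM, while Calcr and Oscar were at 0 in both libraries. A single cell gave 48.9% of the control UMIs of Ctsk and 38.5% of those of Atp6v0d2, and without the top cell of each library their log2 ratios were 2.20 and 3.64.

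In several groups few or no genes were called. Over all genes tested, 2.67% were called higher and 2.48% lower, so lists of this size would hold few calls at that share. No gene was called in either direction among 14 lysosome genes (median 0.31), 11 MHC class I genes (0.34), 6 Fc gamma receptor genes (0.30), 8 neuropilin and plexin genes (0.21) and 11 inflammatory cytokine genes (0.13). Nrp2, which encodes neuropilin-2, stood at 267 and 331 CPM, a log2 ratio of 0.31 (0.21 to 0.41). Il1b stood at 2545 and 1750 CPM, Tnf at 411 and 677 CPM and Il10 at 291 and 317 CPM. Of 13 interferon-stimulated genes, Gbp2 was called higher, of 12 checkpoint and costimulation genes Pdcd1lg2, and of 5 chemokine receptor genes Cxcr4 was called lower (167 and 58.0 CPM). The receptor genes Cx3cr1 and Ccr2 stood at 251 and 129 CPM and at 101 and 176 CPM. Of 14 growth factor and matrix genes, Inhba and Areg were called higher. Of 10 efferocytosis genes, Mfge8 was called higher and Gas6 lower. Of 8 cell cycle genes, Ube2c and Pclaf were called lower, at 18.8 and 5.21 CPM and at 12.1 and 5.32 CPM, and 7 of the 8 had a negative log2 ratio, with a median of -0.71. A single cell gave 61.1% of the Mfge8 UMIs after anti-CD3L1, and without the top cell of each library Mfge8 stood at 3.65 and 6.66 CPM, which is not a call. Pclaf lost its call in the same way, with a log2 ratio of -0.71. In cells with over 1% C1q, Mfge8, Ube2c and Pclaf had values of the opposite sign that rested on 5, 4 and 4 control UMIs. Of the monocyte markers, Ly6c2 was called higher, at 80.4 and 260 CPM, while Vcan stood at 26.1 and 22.7 CPM and Hp at 51.9 and 29.6 CPM. Ly6c2 was not ranked, since a ranked higher gene needed more CPM than in barcodes under 100 UMIs. The summed monocyte markers stood at 2826 and 1970 CPM in those barcodes, against 818 and 1272 CPM in the cells.

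Against Folr2-positive C1q macrophages of the same library (122 and 1312 cells), the Folr2-negative cells differed in few genes, and the rule itself sets the difference in Folr2. Of 7433 genes tested, 7 (0.0942%) were at least 2-fold higher in both libraries and 30 (0.404%) at least 2-fold lower. In cells thinned to 3000 UMIs, 4 genes were called higher and 16 lower, and these held 1 of the 7 and 12 of the 30. Cxcl13 stood at 52.5 CPM against 900 CPM in Folr2-positive cells under control IgG and at 6.60 against 90.6 CPM after anti-CD3L1, the largest gap among the ranked genes, which had at least 50 CPM in a group in both libraries. Cbr2, a carbonyl reductase of resident macrophages, stood at 9.70 against 107 CPM and 12.5 against 113 CPM, and Ccl8 at 303 against 1877 CPM and 400 against 1747 CPM. Of 10 scavenging and tissue-resident genes tested, 5 were lower by 2-fold in both libraries, and 8 were lower in both by any amount. Mrc1 stood at 264 against 533 CPM and 197 against 418 CPM, Lyve1 at 0 against 20.2 CPM and 0.213 against 20.4 CPM, and Cd163 at 0.910 against 6.92 CPM and 0.426 against 12.0 CPM.

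Also lower than in Folr2-positive cells were Psd3, Pf4 (414 against 984 CPM and 145 against 474 CPM), the endothelin receptor Ednrb, Wwp1, the endosomal proton exchanger Slc9a9, and F13a1, coagulation factor XIII, which stood at 104 against 202 CPM and 103 against 203 CPM. Lysosome genes were lower in both libraries in 13 of 14, but by small steps, with medians of -0.30 and -0.34. Folr2-negative cells were the shallower ones, with medians of 13820 against 15125 UMIs and 9594 against 11403 UMIs, and the part of depth was not tested. Cells with 1 Folr2 UMI lay between the others in Mrc1. This gene went from 264 CPM with 0 Folr2 UMIs to 332, 658 and 732 CPM with 1, 2 and 3 or more under control IgG, and from 197 to 261, 302 and 570 CPM after anti-CD3L1. C1qa went from 3178 to 4514 CPM and from 3180 to 5129 CPM between 0 and 3 or more.

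The genes higher in Folr2-negative cells included Il1b, at 2545 against 1464 CPM under control IgG (log2 ratio 0.80) and 1750 against 776 CPM after anti-CD3L1 (1.17). Cytip, a regulator of leukocyte adhesion, stood at 126 against 57.0 CPM and 200 against 89.0 CPM, and Slc7a11, the cystine transporter, at 74.3 against 38.4 CPM and 87.3 against 40.8 CPM. Prkce, Antxr2, Flrt3, Gm20513 and F10, coagulation factor X, followed with log2 ratios between 0.65 and 1.38, of which that of F10 under control IgG was below 0 among cells with at least 0.5% C1q. Areg, which encodes amphiregulin, stood at 61.9 against 5.86 CPM and 131 against 71.7 CPM. Cxcl9, a T cell attractant induced by interferon gamma, stood at 115 against 32.5 CPM and 105 against 55.4 CPM, but 1 cell gave 55.0% of its UMIs under control IgG. MHC class II genes were higher in both libraries in 7 of 9, none by 2-fold, with medians of 0.26 and 0.52, and monocyte markers in 6 of 8, with medians of 0.32 and 0.75. Plac8, a gene of recently arrived monocytes, stood at 251 against 222 CPM and 419 against 255 CPM.

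**Figure D5:**
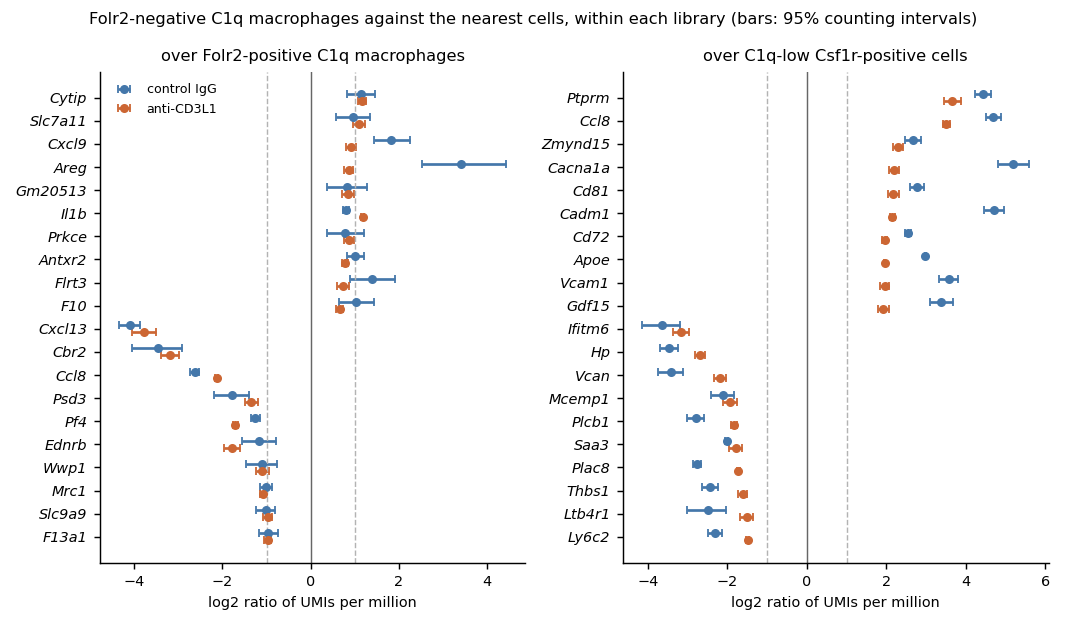
Log2 ratio of CPM of Folr2-negative C1q macrophages over Folr2-positive C1q macrophages (left) and over C1q-low Csf1r-positive cells (right), within the control IgG and the anti-CD3L1 library, for the 10 highest and 10 lowest genes of each comparison; bars are 95% counting intervals and dashed lines mark a ratio of 2. On the right, the control IgG ratio is farther from 0 than the anti-CD3L1 ratio for all 20 genes.

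Against C1q-low Csf1r-positive cells of the same library, 95 of 7447 genes (1.28%) were at least 2-fold higher in both libraries and 82 (1.1%) at least 2-fold lower, with C1q set by the rule. Ptprm stood at 244 against 11.3 CPM under control IgG and 74.4 against 5.91 CPM after anti-CD3L1. Apoe stood at 12216 against 1545 CPM and 13002 against 3357 CPM, Cd72, an inhibitory receptor gene, at 683 against 117 CPM and 314 against 81.0 CPM, Vcam1, a vascular adhesion molecule also on macrophages, at 121 against 10.2 CPM and 84.5 against 21.8 CPM, and Cadm1 at 210 against 8.04 CPM and 296 against 66.7 CPM. The tetraspanin Cd81, Zmynd15, the calcium channel gene Cacna1a, Ccl8 and Gdf15, a stress cytokine, had log2 ratios between 1.93 and 5.19. Lysosome genes were higher in both libraries in 13 of 14, with medians of 0.59 and 0.55, and 4 of 20 lipid genes were higher by 2-fold in both.

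The lower genes included those of monocytes. Of 10 classical monocyte markers, all 10 were lower in both libraries and 8 by 2-fold, with medians of -2.61 and -1.67. Vcan, a matrix proteoglycan, stood at 26.1 against 280 CPM and 22.7 against 104 CPM, Hp, or haptoglobin, at 51.9 against 571 CPM and 29.6 against 192 CPM, Ly6c2 at 80.4 against 401 CPM and 260 against 733 CPM, and Plac8 at 251 against 1721 CPM and 419 against 1384 CPM. Ifitm6, Mcemp1, the signaling enzyme Plcb1, Thbs1, or thrombospondin-1, and the leukotriene receptor Ltb4r1 had log2 ratios between -3.64 and -1.51. Saa3 stood at 1602 against 6474 CPM and 17.2 against 59.5 CPM. Stress genes had a median of 1.48 under control IgG and -0.06 after anti-CD3L1, and MHC class II genes of 1.17 and 0.34. The C1q-low group holds monocytes and macrophages together, and its own make-up in the libraries was not separated here.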

How the data were processed

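Immune cells of 143B tumors from nude mice were profiled by droplet-based single-cell RNA sequencing, with 1 library per group and 3 pooled tumors per library. For each library, raw UMI counts of 32285 mouse genes in every barcode were deposited, unfiltered and not normalized. The submitters' processing notes name Cell Ranger 7.1.0, Seurat 5.1.0 and GRCm39. A deposited table of macrophage genes, which holds the authors' fold changes, shares of cells and p-values, was not used.

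Barcodes were kept with at least 500 UMIs, more than 200 and fewer than 6000 genes and under 5% mitochondrial UMIs. The Folr2-negative cells, the gene lists and the comparisons were chosen with earlier results of these data known. Within a library, the UMIs of all cells in a gate were added and divided by the gate's total (CPM), with exact Poisson intervals for CPM, exact binomial (Clopper-Pearson) intervals for shares and conditional exact binomial intervals for log2 ratios, all at 95%. These cover counting error only. With 1 library per group no test was made. Genes were compared with at least 20 UMIs in both groups together and 10 CPM in one, and called at a ratio of 2. A group with 0 UMIs was set to 3 counts over the group.

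Ranked genes had at least 50 CPM in 1 library and, where higher, more CPM than barcodes under 100 UMIs, and were the 15 highest and 15 lowest between libraries. Against the other gates they were the 10 highest and 10 lowest by the smaller of both libraries' ratios, with the same direction and at least 50 CPM in both. Genes of the rule were not ranked. For shares of cells with a UMI, cells were thinned to 3000 UMIs, which left out 3 and 88 Folr2-negative cells. Doublets were kept in the main values. Scrublet called 4 and 5 cells, under 0.05% of each library, and so did not work as a caller, and leaving out the cells with the highest scores was an alternative. Other alternatives changed the cell filters, the C1q threshold, the scaling, the low count filter and the free RNA. The steps were tested on simulated data, which carried counting noise only and no spread between libraries. The steps used scipy 1.17.1 and numpy 2.4.6 in Python 3.11.15, with matplotlib 3.10.9, scanpy 1.11.5 (Scrublet) and pandas 2.3.3. Promoter sequences came from RefSeq (GRCm38.p6), and positions refer to that build only. Some genes of the lists are not reported here by name.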

Additional observations from a re-analysis of the deposited data

Results flagged for a closer look

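Of 79 listed or ranked genes called between the libraries, 11 had log2 ratios of opposite sign in Folr2-negative C1q macrophages and C1q-low Csf1r-positive cells. The counting interval in C1q-low cells had to lie on the other side of 0, at any size. No such count was made over all genes. With 1 library per group the difference between these effects was not tested. The log2 ratios of anti-CD3L1 over control IgG in C1q-low cells were 0.15 for Hspa1a, 0.07 for Hspa1b, 0.46 for Hsph1 and 0.16 for Bag3. In Folr2-negative cells they were -1.64, -1.73, -1.58 and -1.56. The median log2 ratio of all genes tested in C1q-low cells was 0.10, so Hspa1a, Hspa1b and Bag3 lay close to it there. For the immediate early genes Jun and Ier2 the ratios were 0.57 and 0.49 in C1q-low cells against -1.26 and -1.07 in Folr2-negative cells. For the monocyte attractants Ccl2, Ccl7 and Ccl12 they were 0.36, 0.96 and 0.22 against -1.37, -1.05 and -1.43. These 9 genes were higher in C1q-low cells and lower in the sum of Folr2-negative cells after anti-CD3L1, although in the Folr2-negative cells with 0.1 to 0.5% C1q Ccl7 stood at 201 and 191 CPM and Ccl12 at 76.8 and 75.04 CPM, and Ccl7 lost its call without 1 cell of each library. The genes Atp6v0d2 and Ctsk, which osteoclasts also use, went the other way, with -0.68 and -1.20 in C1q-low cells against 2.98 and 1.40 in Folr2-negative cells, where Atp6v0d2 rested on 26 control UMIs and Ctsk on 47. Without the cell with the most UMIs of the gene in each library, their log2 ratios were 3.64 and 2.20.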

How the results depend on the processing

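No paired analysis was possible because each group has 1 library, and no replicate could be left out. Of the log2 ratios of single genes recomputed under the alternatives, 697 of anti-CD3L1 over control IgG moved little, 164 moved and 8 had the opposite sign, with 487, 71 and 2 against Folr2-positive cells and 683, 217 and 0 against C1q-low cells. The C1q threshold moved most. With C1q of at least 0.5%, 47 of 79 ratios between libraries moved, and in cells with over 1% C1q 52 moved, 19 stayed and the 8 changed sign. Cxcl3 was at 1.99, Pclaf at 0.37, Ube2c at 0.86 and Mfge8 at -0.53, on 1 to 5 control UMIs. Retnla at -2.12 and Col3a1, Gzma and Mgl2, each at -0.42, had 0 control UMIs set to 3 counts and show no direction. Without the cell with the most UMIs of a gene in each library, an alternative chosen after seeing the data, 75 of 79 listed or ranked genes kept their call. Ccl7, Mfge8 and Pclaf lost it, and Col3a1 was at -0.12. F10 turned against Folr2-positive cells under control IgG with C1q of at least 0.5% (-0.54), and Il12b after anti-CD3L1 without the highest Scrublet scores (-0.44).

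Between libraries, 298 genes were lower with C1q of at least 0.5%, 424 were higher and 353 lower after thinning to 3000 UMIs, 488 and 436 in cells with over 1% C1q, and 1063 and 2748 of 20356 genes with at least 1 UMI. Against Folr2-positive cells, 4 and 16 were called after thinning, 60 and 140 without the low count filter, and 11 higher without the highest Scrublet scores. Against C1q-low cells, 158 and 159 were called with C1q of at least 0.5%, and 540 and 251 without the filter. Median-of-ratios scaling gave 218 higher and 190 lower between libraries and moved the median of all genes against C1q-low cells under control IgG from -0.02 to -0.16.

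The Folr2-negative share of kept cells was 2.31 and 14.2% with C1q of at least 0.2%, 1.48 and 9.20% with at least 0.5%, and 3.97 and 24.2% when thinned before the split, and after anti-CD3L1 18.2% from 3000 UMIs and 15.6% without the highest Scrublet scores. The share of C1q macrophages without Folr2 was 56.6% after anti-CD3L1 at 0.2%, 59.9 and 50.7% at 0.5%, and 83.6 and 76.6% after thinning. Between the C1q bands of 1 to 2% and 0.1 to 0.5%, thinned log2 ratios were 1.93 for Apoe, -0.99 for Ly6c2 and 0.18 for Cd74 under control IgG, and 1.65 for Apoe, 0.28 for Mrc1 and 0.16 for Cd74 after anti-CD3L1. The causes were not tested. With 1 library per group, the spread between tumors or libraries could not be measured.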
